A study of Zea mays with 29 samples.

Results

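The regions described here are the 1 Mb bins of maize chromosomes 2 to 10 in a table of DNA read depth, that is, every bin that does not lie on chromosome 1. They number 1816 of the 2127 bins in the table, and chromosome 1 holds the other 311. The table compares 2 leaf DNA libraries of maize (Zea mays). The trisomic library (labelled 3DNA) is of a trisomic, with 3 copies of the long arm of chromosome 1 (1L). The diploid library (labelled 6Sa) is of a diploid, with 2. These copy numbers are those of the design. Over how much of the arm they hold was not checked here, and the median trisomic over diploid ratio of all chromosome 1 bins was 0.988. The same study has 27 RNA libraries of plants that differ in the dose of 1L or of the whole genome, which are not used here. The sources used here do not give genotype, plant age, DNA extraction or the genome build of the bins. The bins are therefore given by chromosome and by their number from the chromosome's first bin.

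Each group is 1 library, so there is no replicate error and no test. Trisomy, the plants sampled and the making of the libraries cannot be told apart.

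Read depth in a bin scales with the number of copies of that stretch of DNA in the plant and with the share of its reads that can be placed there. Depth is given as a share of all reads. With equal copies and an equal share of placed reads in both libraries, a stretch therefore has a trisomic over diploid ratio near 1. That ratio is slightly below 1 where other DNA is present in more copies in the trisomic library. Whether the share of placed reads was equal in the 2 libraries was not tested. Dosage series of maize chromosome arms have classically been built with translocations between an ordinary chromosome and a supernumerary B chromosome, and the table is labelled for the 1La breakpoint. Chromosomes 2 to 10 carry no intended difference in dose between the 2 libraries.

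Levels are in RPKM, reads per kilobase of bin scaled to the reads in the table. All bins are listed with 1 length, though whether the last bin of each chromosome is full length is not known here. The deposited values are exact multiples of 1 read. This gives 97289500 reads in the trisomic library and 133474923 in the diploid library as the smallest whole numbers that match. The median bin of chromosomes 2 to 10 held 45829 trisomic and 63326 diploid reads. For single bins the 95% exact (Clopper-Pearson) interval of the ratio had a median half-width of 1.21% of the ratio, and it covers counting error only.

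Across chromosomes 2 to 10 both libraries had nearly the same level in most bins. The median level was 0.471 RPKM in the trisomic library and 0.474 RPKM in the diploid library. The median ratio was 0.994, with quartiles of 0.966 and 1.02, and 1643 bins (90.5%) lay between 0.9 and 1.1. Chromosomes 2 to 10 took 84.8% of the trisomic reads and 85.0% of the diploid reads. On chromosome 1, whose long arm is varied, the median ratio was 0.988, but the quartiles were wider at 0.929 and 1.09, and 53.7% of bins lay between 0.9 and 1.1.

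No chromosome from 2 to 10 stood apart as a whole. The chromosome medians of the ratio ran from 0.987 on chromosome 9 to 1.00 on chromosome 6. Median levels ran from 0.456 RPKM on chromosome 8 to 0.492 RPKM on chromosome 4 in the trisomic library, and from 0.444 RPKM on chromosome 6 to 0.489 RPKM on chromosome 4 in the diploid library. The spread between the bins of a chromosome differed more than the medians did. Its coefficient of variation was 12.5% (chromosome 7) to 24.9% (chromosome 10) in the trisomic library. In the diploid library it was 15.7% (chromosome 9) to 34.0% (chromosome 6), and larger than in the trisomic library on 9 of 9 chromosomes. The difference was small on chromosomes 9 (15.7% against 15.4%) and 10 (25.3% against 24.9%). On chromosomes 5 and 6 the diploid spread includes single bins at 4.87 and 4.31 times the chromosome median.

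The ratio also varied gently along the chromosomes. In the 180 bins nearest a chromosome end its median was 0.958, in the 180 bins at 40 to 49 bins from the nearer end 0.994, and in the 556 bins at 70 or more bins from it 1.01. Taking only bins with a ratio from 0.769 to 1.3, the median over the middle 30% of the chromosome exceeded that over the 20 bins at each end by 0.0294 (chromosome 10) to 0.0708 (chromosome 2) on 8 chromosomes. On chromosome 6 the medians were 0.998 in the middle and 1.00 at the ends. The whole of this gradient is smaller than the departures described next.

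**Figure D1:**
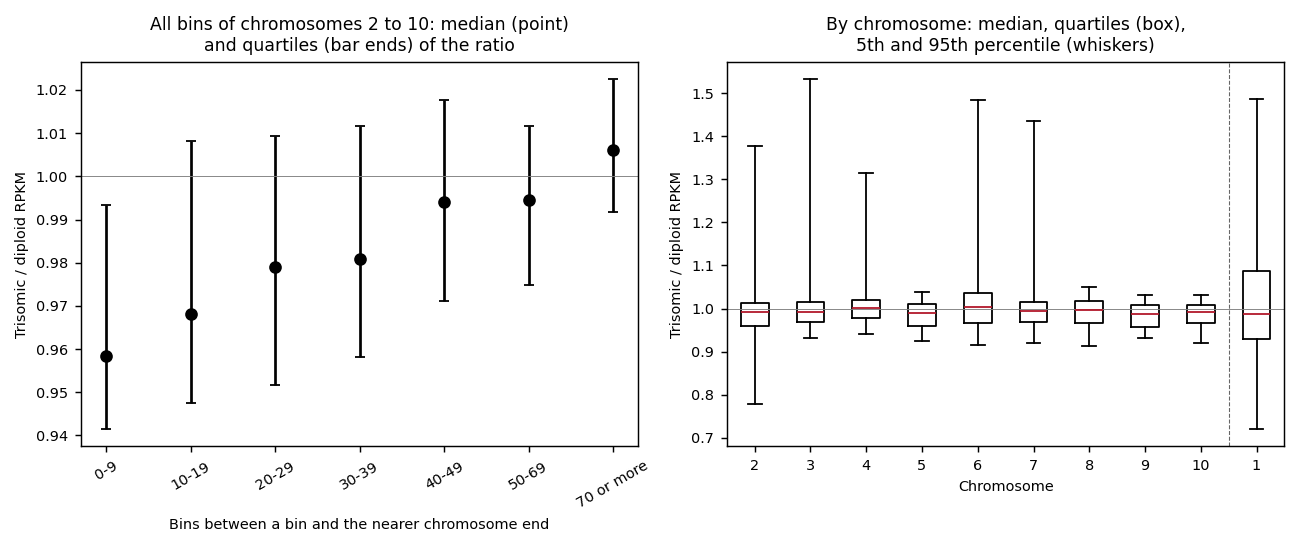
Left, trisomic over diploid RPKM in bins of chromosomes 2 to 10, grouped by the number of bins to the nearer chromosome end (points are medians, bars span the quartiles). Right, the ratio by chromosome, with chromosome 1 set apart. The median is 0.958 in the 10 bins at each end and 1.01 farthest from the ends, and the box of chromosome 1 is the widest.

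A ratio above 1.3 was found in 86 of the 1816 bins, or 4.74%, against a background of 6.35% over all bins of the table and 15.8% on chromosome 1. Ratios below 0.769, which is 1/1.3, were found in 27 bins, or 1.49%, against a background of 2.30% over all bins and 7.07% on chromosome 1. The 86 bins were unevenly spread. Chromosome 6 held 19, chromosome 3 held 18, chromosomes 2 and 4 held 14 each, chromosome 7 held 13, chromosome 8 held 6 and chromosome 5 held 2. Chromosomes 9 and 10 held 0, with highest ratios of 1.06 and 1.17. Of the 27 bins below 0.769, chromosome 2 held 11, chromosome 5 held 5, chromosomes 6 and 8 held 3 each, chromosomes 3 and 4 held 2 each and chromosome 10 held 1.

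Near the upper threshold, bin 162 of chromosome 6 (ratio 1.31) and bin 45 of chromosome 4 (1.32) lay just above it. Bin 12 of chromosome 2 (1.299) and bin 145 of chromosome 8 (1.296) lay just below it. At the lower one, bin 232 of chromosome 2 (0.769, rounded) was inside the called set and bin 231 beside it (0.770) was outside. The 95% interval lay wholly past the threshold for 84 of the 86 bins above 1.3 and for 25 of the 27 bins below 0.769.

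**Figure D2:**
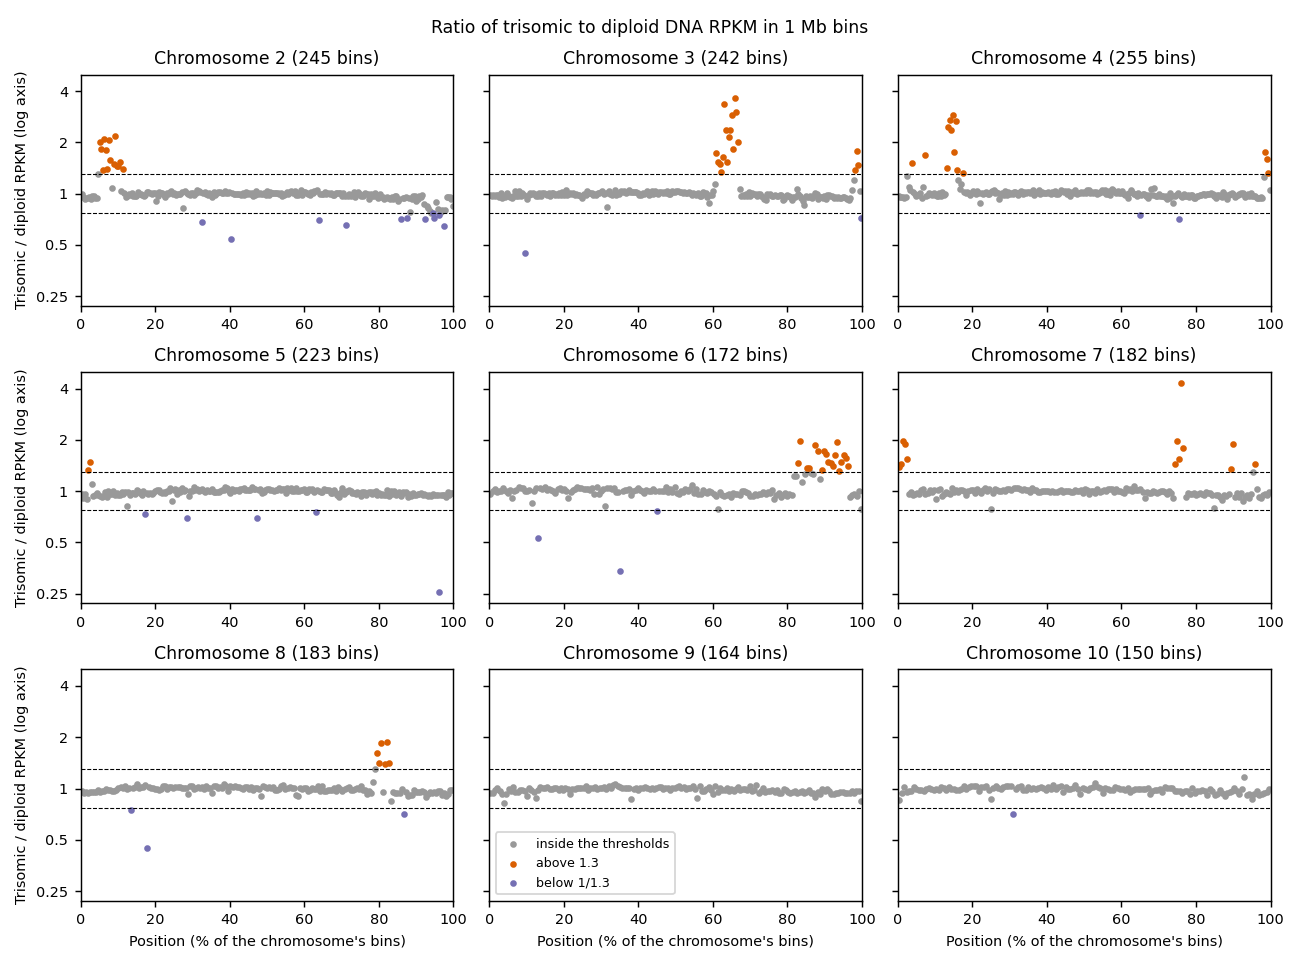
Ratio of trisomic to diploid RPKM (log axis) in each 1 Mb bin of chromosomes 2 to 10, against position as a percentage of the chromosome's bins. Dashed lines mark 1.3 and 0.769. High ratios form clusters, the longest with 15 bins on chromosome 3, while low ratios are mostly single bins.

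Ratios above 1.3 came in clusters and low ones mostly as single bins. The low bins were not evenly scattered, since chromosome 2 held 11 of them, 5 of these in its bins 226 to 240. The 86 high bins formed 21 runs of neighbouring bins. Of these, 11 held 3 or more bins, 71 bins in all, and 7 held 5 or more. The 27 low bins formed 26 runs, of which 25 were single bins and 1 was a pair. High bins were found in 10.8% of the 360 bins within 20 bins of a chromosome end (39 bins), beside 4.74% of all 1816 bins. At 20 to 29, 30 to 39 and 40 to 49 bins from an end the shares were 6.67%, 7.22% and 3.89%. These are 12, 13 and 7 high bins, of 180 bins in each band. They were found in 0 of the 360 bins at 50 to 69 bins from an end. The 15 high bins farther from an end than that all belong to the run on chromosome 3.

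In the high runs it was the diploid library that departed from its chromosome. A library was said to depart when its median RPKM over the run was above 1.3 times, or below 1/1.3 times, its median over that chromosome. The diploid library was low by this measure in 19 of the 21 high runs, and the trisomic library departed in 0. In the 2 others neither departed. Over the 86 high bins the trisomic level was 0.702 to 1.24 times the chromosome median, with a median of 0.976, whereas the diploid level was 0.203 to 0.892 times it, with a median of 0.621. Summed over these bins, the level fell short of the chromosome medians by 1.94% in the trisomic library and by 41.1% in the diploid library. Since the ratio chose the bins, these values describe them and test nothing.

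Chromosome 1 had both kinds of high run. Of its 17 runs above 1.3, the trisomic library was high in 9 and the diploid library was low in 4, with neither in 4. Bins 302 to 311 of chromosome 1, at its far end, had a median of 0.734 RPKM in the trisomic library and 0.547 RPKM in the diploid library, which is 1.53 and 1.13 times the chromosome medians. On chromosomes 2 to 10, 0 of the 86 high bins had a high trisomic level, beside 22 (1.21%) of all 1816 bins there. Among the 49 high bins of chromosome 1 the trisomic level was high in 24, beside 35 of all 311 bins of that chromosome.

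**Figure D3:**
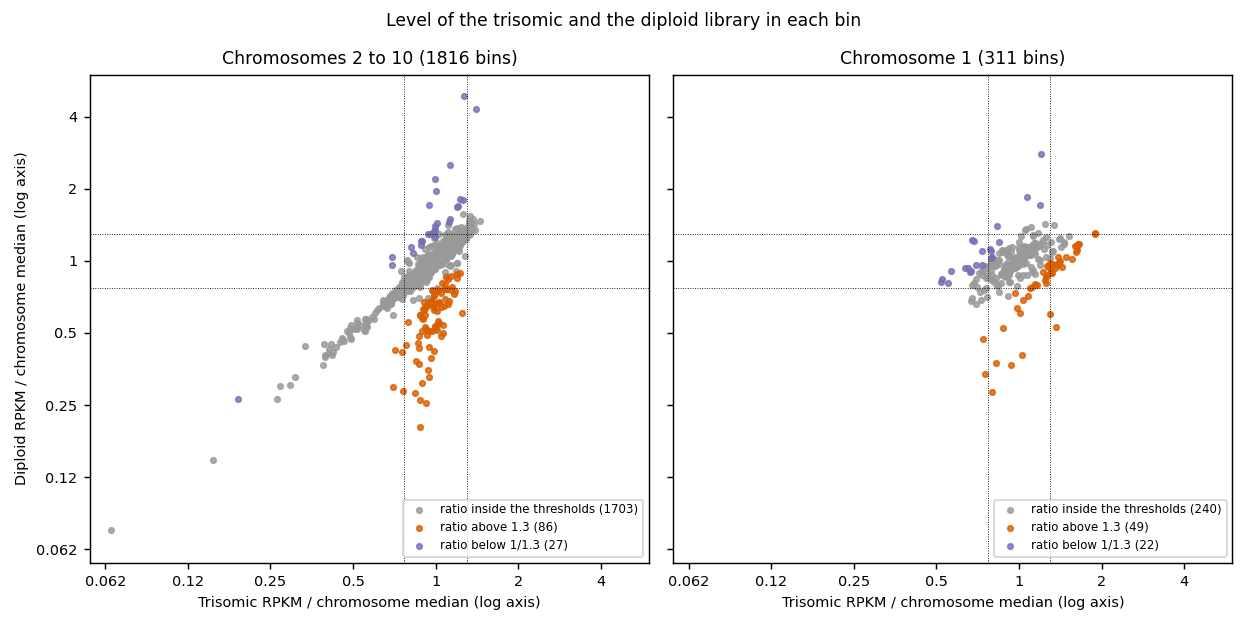
Level of each bin over its chromosome median, trisomic on the horizontal and diploid on the vertical axis (both log), for chromosomes 2 to 10 (left) and chromosome 1 (right). Dotted lines mark 1.3 and 0.769 times the median. On chromosomes 2 to 10 the bins with a ratio above 1.3 drop down the diploid axis at a trisomic level of 0.702 to 1.24, while on chromosome 1 24 of 49 such bins lie to the right of 1.3.

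The longest run covered bins 148 to 162 of chromosome 3. Over its 15 bins the trisomic library ranged from 0.333 to 0.532 RPKM with a median of 0.433 RPKM. The diploid library ranged from 0.121 to 0.360 RPKM with a median of 0.205 RPKM. That is 0.913 and 0.431 times the chromosome medians, and the ratio from the summed reads was 1.97 (95% interval 1.97 to 1.98). The ratio was uneven within the run, between 1.34 and 3.63, and its highest value was in bin 160, where the trisomic library had 0.439 RPKM and the diploid library 0.121 RPKM. The bins just outside had ratios of 1.14 and 1.07.

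On chromosome 4 the run covered bins 34 to 41 and had the highest median ratio of the named runs, 2.41. The trisomic library ranged from 0.376 to 0.486 RPKM with a median of 0.465 RPKM, and the diploid library from 0.141 to 0.352 RPKM with a median of 0.199 RPKM. The libraries did not overlap here, in bins that were chosen for a high ratio. The diploid median was 0.407 times its chromosome median, and the trisomic median 0.944 times. The summed ratio was 2.03 (95% interval 2.02 to 2.04), the highest ratio was 2.90 in bin 38, and the edge was abrupt on the near side, where bin 33 had a ratio of 0.996, and graded on the far side, where bin 42 had 1.21. Single bins of this chromosome were also high, at bin 10 (ratio 1.52), bin 19 (1.69) and bin 45 (1.32).

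Chromosome 2 had a pair of long runs close together, bins 13 to 20 and bins 22 to 26. In the first, the trisomic library ranged from 0.440 to 0.580 RPKM with a median of 0.491 RPKM, and the diploid library from 0.209 to 0.366 RPKM with a median of 0.274 RPKM. Its summed ratio was 1.72 (95% interval 1.71 to 1.73). In the second, the trisomic library had 0.473, 0.396, 0.410, 0.454 and 0.458 RPKM, against 0.318, 0.182, 0.284, 0.314 and 0.300 RPKM in the diploid library, a summed ratio of 1.57 (95% interval 1.56 to 1.58). All 5 trisomic values lay above all 5 diploid ones, in bins that were chosen for a high ratio. Bin 23 had the highest ratio of the chromosome, 2.17. Bins 21 and 27, with ratios of 1.08 and 1.04, separate these runs from each other and from the single high bin 28 (1.39), and taken as 1 stretch bins 13 to 28 held 14 high bins of 16.

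The high bins of chromosome 6 lay near its far end, and their longest run had the lowest summed ratio of the 7 runs of 5 or more bins. In bins 154 to 166, 13 bins, the trisomic library ranged from 0.327 to 0.540 RPKM with a median of 0.468 RPKM. The diploid library ranged from 0.189 to 0.382 RPKM with a median of 0.323 RPKM, so the ranges overlapped. Relative to the chromosome medians these were 1.02 and 0.727, and the summed ratio was 1.52 (95% interval 1.51 to 1.53). Ahead of this run lay 3 pairs of high bins, 143 and 144, 147 and 148, and 151 and 152, with summed ratios of 1.66, 1.36 and 1.79. In the middle pair neither library departed, with the diploid library at 0.824 and the trisomic library at 1.08 times the chromosome median. All 26 bins from 141 to 166 had ratios of at least 1.12. The highest was 1.98 in bin 144, and on the far side the ratio was 0.926 in bin 167.

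Chromosome 7 had a run at its very start and one of equal length farther along. In bins 1 to 5 the trisomic library had 0.473, 0.432, 0.511, 0.446 and 0.493 RPKM, against 0.343, 0.301, 0.258, 0.235 and 0.321 RPKM in the diploid library. In these bins, chosen for a high ratio, trisomic values lay above diploid ones throughout. The summed ratio was 1.62 (95% interval 1.61 to 1.63), and bin 6 was already at 0.957. In bins 136 to 140 the trisomic library had 0.435, 0.483, 0.425, 0.419 and 0.418 RPKM, against 0.300, 0.247, 0.277, 0.0974 and 0.233 RPKM in the diploid library, with a summed ratio of 1.89 (95% interval 1.876 to 1.901). Both edges were sharp, with ratios of 0.908 in bin 135 and 0.924 in bin 141. The value of 0.0974 RPKM in bin 139 was 0.203 times the diploid chromosome median and gave the highest ratio of the table, 4.30 (95% interval 4.22 to 4.39). The same bin of the trisomic library was at 0.876 times its median.

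**Figure D4:**
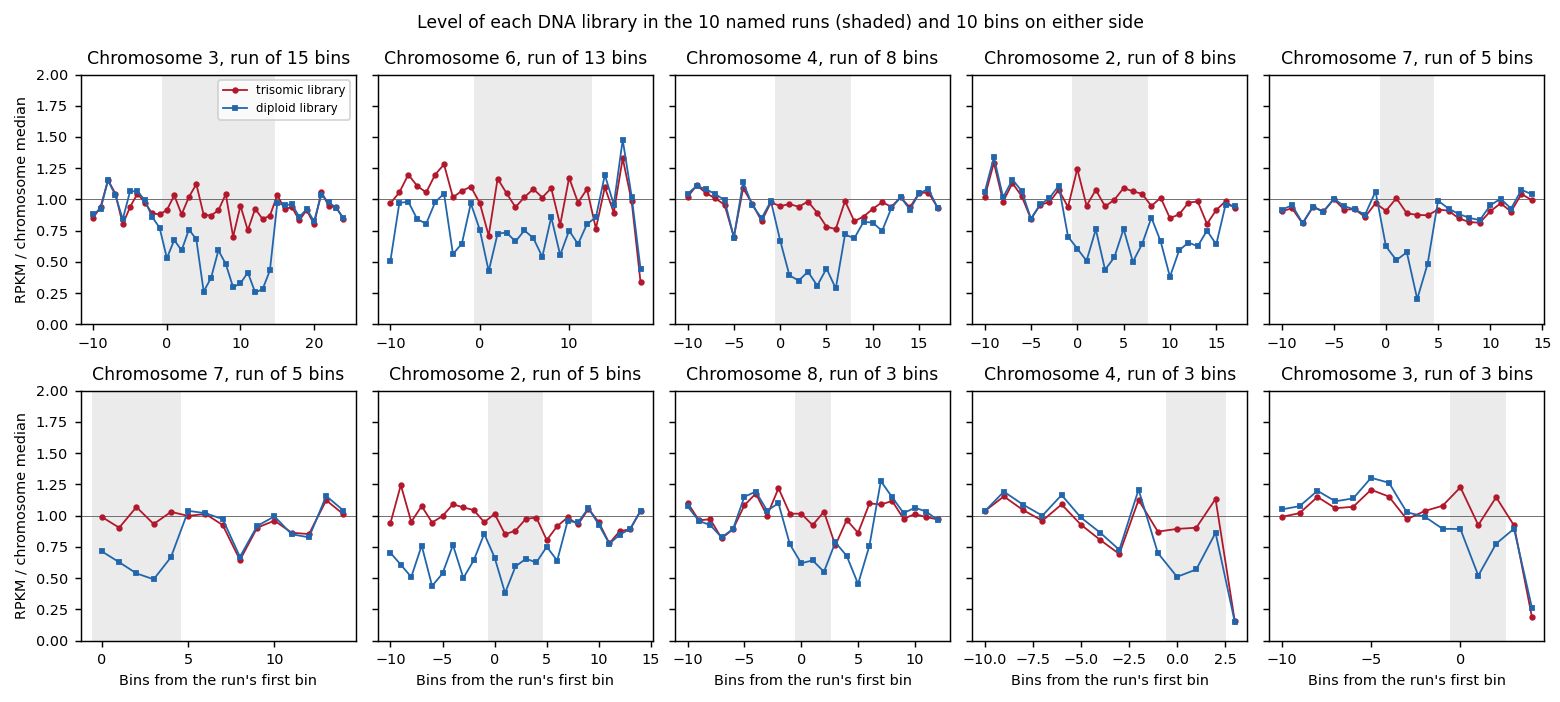
RPKM of the trisomic and the diploid library over its own chromosome median, in the 10 named runs (shaded) and up to 10 bins on either side, by distance in bins from the run's first bin. The diploid line falls inside the shaded runs to a median of 0.407 to 0.775, while the trisomic line stays at a median of 0.889 to 1.15, and outside most runs the lines lie together.

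Shorter runs showed the same split between the libraries. In bins 146 to 148 of chromosome 8 the trisomic library had 0.463, 0.421 and 0.470 RPKM, against 0.286, 0.297 and 0.255 RPKM in the diploid library, a summed ratio of 1.61 (95% interval 1.601 to 1.627). Past a gap of 1 bin, bins 150 to 152 had 0.440, 0.393 and 0.4999 RPKM in the trisomic library, against 0.314, 0.210 and 0.352 RPKM in the diploid library, with the chromosome's highest ratio, 1.87, in bin 151. The bin between them, 149, had 0.347 RPKM in the trisomic library and 0.364 RPKM in the diploid library, 0.762 and 0.786 times the chromosome medians, and its ratio was 0.954. The run in bins 252 to 254 of chromosome 4 stopped 1 bin short of the chromosome's last. There the trisomic library had 0.440, 0.445 and 0.558 RPKM and the diploid library 0.2496, 0.279 and 0.422 RPKM.

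In 1 of the longer runs neither library departed by the measure used. In bins 238 to 240 of chromosome 3 the trisomic library had 0.582, 0.438 and 0.544 RPKM, against 0.423, 0.246 and 0.368 RPKM in the diploid library. The trisomic median was 1.15 and the diploid median 0.775 times the chromosome median, and the summed ratio was 1.51 (95% interval 1.498 to 1.519). With up to 10 bins on either side in place of the chromosome median the diploid library again departed in 10 of 11 runs, but not in the same ones. Bins 238 to 240 of chromosome 3 then counted as a diploid departure, at 0.730 times the flanking median, while bins 22 to 26 of chromosome 2 did not, at 0.820 times. Of the 20 bins flanking that run of chromosome 2, 9 were themselves high bins. On chromosome 5, whose highest ratio was 1.48 in bin 6, the only high run was the pair of bins 5 and 6, with summed ratio 1.40.

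The depth of the diploid fall was not the same from bin to bin. Of the 86 high bins, 1 had a diploid level under 0.25 times the chromosome median, 21 had 0.25 to 0.5 times, 19 had 0.5 to 0.6 times, 23 had 0.6 to 0.7 times and 22 had more. Ratios above 2 were found in 17 bins and above 3 in 4, while 34 bins had ratios of 1.5 or less.

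In the low runs the diploid library again departed more often than the trisomic library, but not as uniformly as in the high runs. In 15 of the 26 low runs the diploid library alone departed, in 2 the trisomic library alone, in 2 both, and in 7 neither. Where the diploid library alone departed it was high. The extreme was bin 215 of chromosome 5, with 0.592 RPKM in the trisomic library and 2.32 RPKM in the diploid library. The ratio there was 0.256 (95% interval 0.254 to 0.258), the lowest of the table, and the neighbouring bins were at 0.948 and 0.942. The trisomic library was itself at 1.27 times its chromosome median in that bin, against 4.87 times in the diploid library.

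Bin 61 of chromosome 6 followed, with 0.648 RPKM in the trisomic library and 1.91 RPKM in the diploid library, 1.41 and 4.31 times the chromosome medians. Both libraries were high there, the diploid one far more so, and the ratio was 0.338. Bin 24 of chromosome 3 had 0.536 RPKM in the trisomic library and 1.196 RPKM in the diploid library, a ratio of 0.448. Bin 33 of chromosome 8 had 0.452 RPKM in the trisomic library and 1.02 RPKM in the diploid library, a ratio of 0.445. These are isolated bins whose neighbours had ratios of 0.930 to 1.05. The lowest ratios of chromosomes 2, 4 and 10 were 0.540 in bin 99, 0.707 in bin 193 and 0.712 in bin 47, with the diploid library at 1.70, 1.44 and 1.69 times its chromosome median. On chromosomes 7 and 9 no bin passed the threshold, and their lowest ratios were 0.782 in bin 46 and 0.819 in bin 7.

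A low trisomic level without a low diploid level was found in only 2 of the low runs, both single bins. Bin 239 of chromosome 2 had 0.322 RPKM in the trisomic library and 0.499 RPKM in the diploid library, and bin 159 of chromosome 8 had 0.316 RPKM and 0.444 RPKM. The trisomic level was 0.692 times the chromosome median in bin 239 and 0.693 times in bin 159.

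Bin 239 lies in the only long stretch of chromosomes 2 to 10 with a mildly lowered ratio, which was chosen after its values had been seen. Bins 226 to 240 of chromosome 2 all had ratios below 0.909 (1/1.1), from 0.646 to 0.889 with a median of 0.789, and 5 of the 15 passed 0.769. The trisomic library had a median of 0.425 RPKM and the diploid library one of 0.539 RPKM, 0.913 and 1.12 times the chromosome medians. The trisomic level was under its median in 14 of 15 bins and the diploid level above its own in 12 of 15, so neither library alone carried the stretch.

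Most bins that were low in the trisomic library were low in both. The diploid library was below 1/1.3 times its chromosome median in 184 bins (10.1%, against a background of 9.78% over all bins), and the trisomic library in 109 (6.00%, background 6.77%). Both were low in 94 bins, of which 89 had a ratio inside the thresholds. The diploid library alone was low in 90 bins, of which 73 had ratios above 1.3, and the trisomic library alone in 15, of which 13 stayed inside the thresholds. High levels were rarer, with 22 bins in the trisomic library (1.21%, background 2.68%) and 56 in the diploid library (3.08%, background 3.15%), and 19 high in both.

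The longest shared fall, with single bins not breaking it, was near the far end of chromosome 10 and was also chosen after its values had been seen. In bins 114 to 140 the trisomic library ranged from 0.145 to 0.363 RPKM with a median of 0.244 RPKM, and the diploid library from 0.155 to 0.382 RPKM with a median of 0.2505 RPKM. Both libraries were low in 24 of these 27 bins, and their medians were 0.517 and 0.527 times the chromosome medians. The ratio had a median of 0.964 and a range of 0.905 to 1.17, so 0 of the 27 bins passed either threshold. In the long runs of chromosomes 3 and 4 and in bins 136 to 140 of chromosome 7 the diploid library was about as low, at 0.431, 0.407 and 0.514 times its chromosome median, while the trisomic library was at 0.913, 0.944 and 0.889 times.

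**Figure D5:**
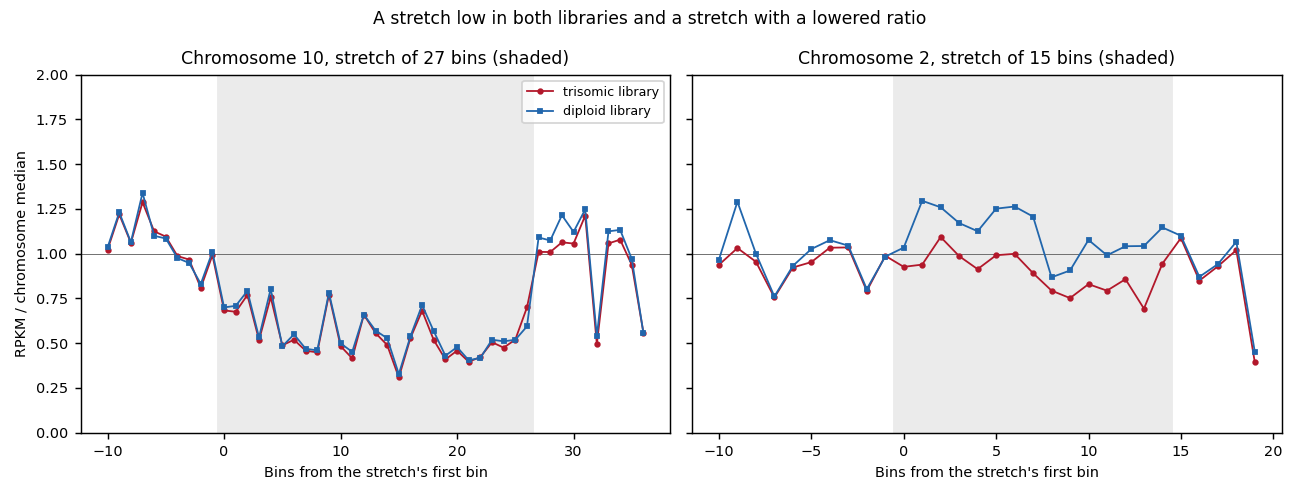
RPKM over the chromosome median of the trisomic and the diploid library in bins 114 to 140 of chromosome 10 (left, shaded) and bins 226 to 240 of chromosome 2 (right, shaded), with up to 10 bins on either side. On chromosome 10 both lines fall together to medians of 0.517 and 0.527, and on chromosome 2 the trisomic line lies below the diploid one, at medians of 0.913 and 1.12.

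Across the 1816 bins, Pearson's r between the trisomic and diploid levels was 0.720 and Spearman's rho 0.868, and over the 1703 bins inside the thresholds r was 0.959. On chromosome 1 the r was 0.375 over all bins and 0.737 inside the thresholds. These are descriptions over bins, which share a library, a read total and the sequence of the same stretch, and no p is given.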

How the data were processed

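Leaf DNA of 1 trisomic and 1 diploid library was compared, and the number of plants in each is not known here. Per the file headers, the authors counted reads in bins of 1000000 bp and deposited them as RPKM, with the ratio of trisomic to diploid RPKM. Per the submitters' processing notes Bowtie, TopHat, Cufflinks and Cuffdiff were used; the sources used here give neither their roles nor the genome build. Each RPKM column sums to 1000 over the bins, and read numbers were recovered as the smallest whole numbers in the same proportions; 100% of values came out whole (within 5.8e-10 of a read). The ratio was recomputed and equalled the deposited one within 0.0005, with 0 bins on another side of a threshold. Runs are neighbouring bins past 1.3 or 1/1.3; runs of 5 or more bins were named, then shorter ones by length and median ratio up to 10, and each chromosome's highest and lowest bin. Run calling was tested on simulated data. No test was possible with 1 library per group. Python 3.11.15, numpy 2.4.6, pandas 2.3.3 and scipy 1.17.1 were used. Members, thresholds and lists were chosen with earlier results of these data known. Other thresholds, scalings, a pseudocount, filters and smoothing were tried as alternatives.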

Additional observations from a re-analysis of the deposited data

How the results depend on the processing

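Of 127 recomputed values under 12 alternatives, 119 stayed close to the reported value. For a count, close means within 1.5 times. For a median ratio it means a shift smaller than the median half-width of the counting interval of single bins. The other 8 came from 3 settings. With a threshold of 1.2, 43 bins had low ratios. At that threshold 15 runs held 3 or more bins, 2 of them low runs, and the diploid library departed in 10 of the 15. With 1.5, 52 bins were high and 8 low (8 low runs), 24 bins lay in runs of 3 or more, and the diploid library departed in 4 of 4 such runs. With the median of 3 neighbouring bins, 7 bins in 5 runs were low, since single bins are smoothed away by construction. Scaling to the reads of chromosomes 2 to 10, an alternative chosen after seeing the data, kept all counts within 1.5 times. No paired analysis was possible because each DNA group is 1 library, so no replicate could be left out either. Depth limits little: counting intervals are narrow, but plant-to-plant and library error are unknown.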

Other observations

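The last bin of each chromosome from 2 to 10 was low in both libraries, in 9 of 9 chromosomes. The lowest was that of chromosome 9, at 0.0653 times the chromosome median in the trisomic library and 0.0753 times in the diploid library, with a ratio of 0.844. The last bin of chromosome 3 was the only one past a threshold, at 0.0900 RPKM in the trisomic library and 0.125 RPKM in the diploid library, a ratio of 0.720. Whether these bins are full length is not given in the sources used here.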
